A study of Mus musculus with 6 samples.

Results

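Macrophages, monocytes and dendritic cells of the mouse pancreas were taken from 6 droplet single-cell RNA sequencing libraries by the genes they carried. A barcode was kept with 200 or more genes and no more than 20% of its UMIs (unique molecular identifiers, 1 per captured transcript) mitochondrial. Members were then chosen by their own UMI counts. A kept barcode was a member when it had UMIs of at least 4 of the 11 genes Lyz2, C1qa, C1qb, C1qc, Tyrobp, Fcer1g, Csf1r, Apol7c, Cst3, Fscn1 and Ccr7. It also had to have 0 UMIs of Cd79a (B cells), Cd3e (T cells), Ncr1 (natural killer cells) and S100a8 (neutrophils). The rule found 133 cells among 4929 kept cells, out of 8582 deposited barcodes. These were described as 61 C1q-high cells, with at least 3 UMIs of C1qa, C1qb and C1qc together, and 72 C1q-low cells, with fewer. Because measured counts chose the cells, levels of the 11 genes, the split itself and any contrast of members with other cells are descriptions without a test.

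The study sorted cells of the pancreas by the yellow fluorescent protein EYFP, using the strain R26[CA]30EYFP with a C57Bl/6J background. In this allele a tract of CA repeats holds EYFP out of frame at the ubiquitously active Rosa26 locus, and a rare change in repeat length in a dividing cell turns the protein on in that cell and its descendants. Every group carried the allele, and each of 3 runs gave 1 EYFP positive and 1 EYFP negative library. Runs 1 and 2 were homeostasis, 2 libraries per EYFP group, and run 3 was taken 9 days after cerulein, 1 library per EYFP group. Cerulein, a secretagogue that injures acinar cells at high dose, was given intraperitoneally at 50 ug/kg in 7 hourly injections a day on 2 days. Run 3 and cerulein cannot be told apart, and the labels give neither the age of the mice nor whether animals were pooled or separate. The p-values below therefore measure the spread between these libraries, which may be technical. The features held 0 rows for EYFP, and the counts therefore give no check of the sort.

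Tissue macrophages take up dying cells and debris, and the C1q genes encode the 3 chains of the first complement component, which tags such material. Monocytes reach tissue from blood: classical monocytes carry Ly6c2 and Ccr2, and non-classical monocytes, which patrol vessel walls, carry Ace, Treml4 and Spn. Dendritic cells present antigen to T cells, and on maturation they gain Ccr7, the receptor that leads them to lymph nodes, together with Fscn1, a protein that bundles actin in dendrites.

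The promoters of 4 genes are shown because the results describe them. C1qb and C1qc make up part of the split. Il4i1, an enzyme that breaks down aromatic amino acids, was called lower after cerulein in C1q-low cells by a fit added after the data were seen. It was called in 11 of 23 other settings, and fewer cells carrying it cannot be told apart from less RNA per cell. Ccl22, a chemokine for T cells that did not pass the test, is a marker of mature dendritic cells. Sequences are from RefSeq on GRCm38.p6, 300 bases from 250 before to 50 after the start, printed 5′ to 3′ on the strand of the gene. The C1qb window is chr4:136886151-136886450 on the minus strand and the C1qc window chr4:136892865-136893164 on the minus strand. The Il4i1 window is chr7:44836038-44836337 and the Ccl22 window chr8:94745434-94745733, both on the plus strand. The C1qa promoter is not shown. Capitals mark matches on either strand to GAGGAA, a core of sites for the myeloid factor PU.1, and to GGGANNNNCC, a form of the NF-kB site.
C1qb: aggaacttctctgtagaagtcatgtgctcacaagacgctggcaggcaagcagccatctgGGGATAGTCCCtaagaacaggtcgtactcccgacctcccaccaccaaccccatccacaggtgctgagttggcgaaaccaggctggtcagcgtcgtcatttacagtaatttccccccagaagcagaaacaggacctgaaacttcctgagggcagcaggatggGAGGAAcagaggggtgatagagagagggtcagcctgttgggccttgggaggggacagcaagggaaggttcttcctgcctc
C1qc: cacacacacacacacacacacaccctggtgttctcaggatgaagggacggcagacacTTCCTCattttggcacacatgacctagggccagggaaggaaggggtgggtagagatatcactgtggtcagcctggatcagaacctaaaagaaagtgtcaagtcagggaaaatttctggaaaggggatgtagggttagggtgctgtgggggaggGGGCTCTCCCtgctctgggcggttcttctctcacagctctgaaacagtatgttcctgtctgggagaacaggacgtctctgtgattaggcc
Il4i1: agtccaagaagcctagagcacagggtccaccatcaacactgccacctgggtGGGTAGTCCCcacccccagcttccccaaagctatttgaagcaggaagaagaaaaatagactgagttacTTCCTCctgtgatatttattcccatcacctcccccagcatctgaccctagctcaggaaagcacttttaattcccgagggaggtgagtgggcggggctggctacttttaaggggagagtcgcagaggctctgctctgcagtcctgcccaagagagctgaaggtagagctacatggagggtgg
Ccl22: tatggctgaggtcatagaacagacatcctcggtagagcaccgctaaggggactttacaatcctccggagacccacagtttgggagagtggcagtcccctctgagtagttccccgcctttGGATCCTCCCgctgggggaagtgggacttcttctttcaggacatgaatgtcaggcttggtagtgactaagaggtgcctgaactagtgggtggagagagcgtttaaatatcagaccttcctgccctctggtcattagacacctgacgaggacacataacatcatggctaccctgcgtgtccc
The PU.1 core was found in C1qb, C1qc and Il4i1, with its first base 30, 193 and 131 bases before the start, and its letters are absent from the Ccl22 window. It occurs in 28.3% of the 32851 RefSeq promoters of this length. The NF-kB form was found in all 4 windows, with its first base 191, 40, 199 and 131 bases before the start in C1qb, C1qc, Il4i1 and Ccl22, and in C1qb its matches on the 2 strands overlap. It occurs in 20.7% of the promoters. Both are matches of letters and not measured sites.

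Members were few in each library. EYFP negative runs 1, 2 and 3 held 24, 66 and 19 members among 438, 1765 and 1466 kept cells. EYFP positive runs 1, 2 and 3 held 7, 9 and 8 members among 835, 187 and 238 kept cells. The C1q-high cells numbered 8, 34 and 8 in EYFP negative runs 1, 2 and 3 and 4, 3 and 4 in EYFP positive runs 1, 2 and 3, and the C1q-low cells 16, 32 and 11 and 3, 6 and 4. Per library, the summed UMIs behind each value ranged from 15087 to 161260 for C1q-high and from 14589 to 181270 for C1q-low cells. Median depth was 2799 UMIs per C1q-high cell and 5838 per C1q-low cell, against 4564 per other kept cell. Sums over cells weight the deeper cells more, and the 26533 UMIs of the deepest C1q-low cell belonged to EYFP positive run 3. No member was among the 50 barcodes that Scrublet called as doublets.

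Some barcodes occurred in more than 1 library. Over the 15 pairs of libraries 146 barcodes were shared, 141 of them between the 2 libraries of 1 run. Of the members, 5 were shallower copies of a deeper barcode in the EYFP positive library of the same run. They lay in EYFP negative run 2 (4 members) and run 3 (1 member), 2 C1q-high and 3 C1q-low. They held 526 to 3070 UMIs, or 2.92% to 9.17% of the UMIs of the deeper copy, and 88.2% to 96.5% of their genes were in that copy. For 1 of them, a C1q-low cell of 3070 UMIs in EYFP negative run 2, the deeper copy of 34339 UMIs was not itself a member. The counts of mature dendritic-like cells and the genes called in C1q-low cells after cerulein are given with and without them. All other results include them.

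At the edge of the rule, 29 members had UMIs of exactly 4 of the 11 genes, with a median of 2273 UMIs. Another 104 kept cells had exactly 3 and stayed outside, and 67 of these carried 5 or more of the 9 endothelial markers. Of the cells that met the count of 4 genes, 16 were left out by the exclusion genes, 11 for Cd79a and 5 for S100a8. C1q UMIs split the members with few cells near the boundary: 61 had 0, 8 had 1, 3 had 2 and 6 had 3 to 5, while 27 had over 50. The level of these genes in cells that should lack them was read from 471 cells with Cd3e UMIs, with a median of 6367 UMIs. Of those T cells 1.49% had a UMI of Lyz2, 0.212% of C1qa, 0.849% of C1qb, 0 of C1qc, 1.06% of Apol7c and 0.637% of Fscn1, and none reached 3 C1q UMIs. Cst3 was found in 47.8% and Ccr7, which T cells also express, in 41.4% of them. Free RNA of other cells was common, with Ctrb1, an acinar protease, in 77.3% and Hbb-bs, a haemoglobin chain, in 79.2% of T cells.

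The defining markers were in keeping with the label in most but not all members. All 26 resident macrophage markers were present in C1q-high cells, 4 of which, the C1q chains and Csf1r, belong to the rule, and their summed level was 26230.4, 57869 and 57732 CPM in EYFP negative and 88589, 31526 and 81053 CPM in EYFP positive runs. In C1q-low cells the 25 detected macrophage markers summed to 979.6 to 4387 CPM in homeostasis and 3502 to 6694 CPM after cerulein. Of 12 T and natural killer cell genes, 4 had UMIs in C1q-high and 8 in C1q-low cells. They summed to 12.5 and 37.0 CPM, against 983 CPM in other kept cells. Cd3d and Cd3g were at 0 in both classes, beside Cd3e and Ncr1, which the rule set to 0. Of 8 mast cell and basophil markers, 0 had UMIs in C1q-high and 3 in C1q-low cells. Of 10 neutrophil genes, 3 had UMIs in C1q-high and 5 in C1q-low cells, and S100a9 was at 0 in C1q-high cells. The 10 genes together summed to 187 CPM in C1q-high cells, of which Mmp9 alone gave 150 CPM. In C1q-low cells the 10 genes summed to 45.9 CPM, against 112 CPM in other kept cells. In C1q-high cells of EYFP positive run 1 they reached 574 CPM. Of the C1q-low cells 3, all from EYFP negative run 2, carried 5 or more of the 9 endothelial markers.

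The 61 C1q-high cells were described first. The C1q chains took 1.58% of their UMIs, from 0.785% to 2.32% across libraries. C1qa was at 2681, 6176 and 5568 CPM in EYFP negative runs 1, 2 and 3 and 8996, 5513 and 4967 CPM in EYFP positive runs 1, 2 and 3. C1qb was at 3633, 6164 and 7622 CPM in EYFP negative and 8262, 6989.7 and 6656 CPM in EYFP positive runs. C1qc was at 1535, 3950.1 and 4507 CPM in EYFP negative and 5965, 4396 and 3994 CPM in EYFP positive runs. EYFP negative run 1 had the lowest and EYFP positive run 1 the highest level of each chain. Of the 5064 C1q UMIs, 36.2% were C1qa, 39.3% C1qb and 24.5% C1qc (exact 95% intervals 34.9% to 37.5%, 37.9% to 40.7% and 23.3% to 25.7%). All 3 chains were found in 57 of the 61 cells and 2 chains in the other 4.

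The UMIs of C1q-high cells were led by Malat1, a nuclear RNA, at 36193 CPM (UMIs of the gene per 1000000 UMIs of the pooled cells). Next came Cd74, the invariant chain of MHC class II, at 29081 CPM and Apoe, a lipid carrier, at 26597 CPM. MHC class II chains followed, with H2-Aa at 11417, H2-Eb1 at 10909 and H2-Ab1 at 9490 CPM by the count of UMIs, which are not scaled to gene length. The MHC class II list of 13 genes summed to 74323, 73000.1 and 55346 CPM in EYFP negative and 49223, 70978 and 40475 CPM in EYFP positive runs. Apoe was less even, at 10509, 26243 and 28104 CPM in EYFP negative and 43896, 7350.03 and 46312 CPM in EYFP positive runs. It was lowest in EYFP positive run 2 and EYFP negative run 1, and the remaining 4 libraries lay well above both.

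Against C1q-low cells, the highest ratios of pooled CPM after the C1q chains belonged to macrophage genes. Pf4, a platelet factor that macrophages also make, had 527 UMIs in C1q-high and 2 in C1q-low cells. Ms4a7, a membrane protein of macrophages, had 369 against 5, and Folr2, a folate receptor, 151 against 1. Stab1, a scavenger receptor, had 136 against 4 UMIs, and Cbr2, a carbonyl reductase, 114 against 3. Lyve1, a hyaluronan receptor, was at 0 in C1q-low cells and at least 63.6-fold higher in C1q-high cells, with a floor of 3 counts over the class. The complement genes C3ar1, a receptor, and C4b were also at 0 in C1q-low cells, at least 62.5 and 57.7-fold higher. Reads of C4b may be shared with its near-identical neighbour. The chemokines Ccl24 and Ccl2 had 69 and 63 UMIs against 1 each. Igf1, a growth factor, had 54 against 2, and Dab2, an endocytic adaptor, 207 against 13.

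**Figure D1:**
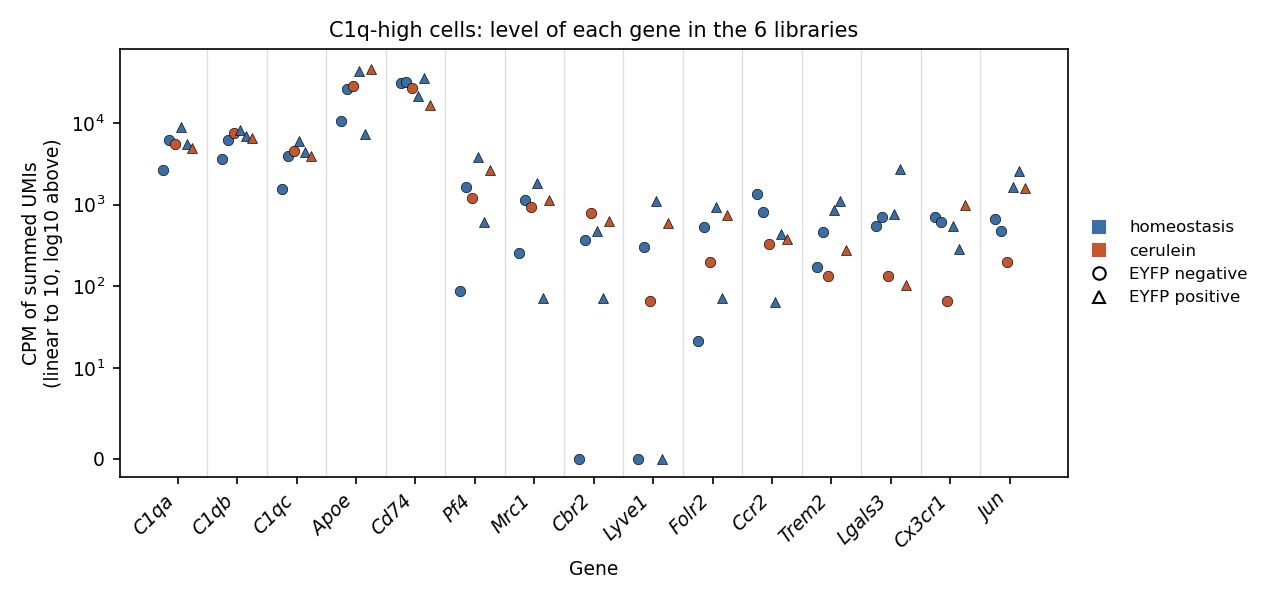
Level of 15 genes in C1q-high cells, 1 point per library (y axis: CPM of summed UMIs, linear to 10 and logarithmic above; circles EYFP negative, triangles EYFP positive; blue homeostasis, orange cerulein). C1qa, a gene of the rule, ranges from 2681 to 8996 CPM, Lyve1 from 0 to 1117 CPM and Cbr2 from 0 to 795 CPM.

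Genes of resident macrophages outside the rule differed between libraries. The C1q chains, which chose these cells, are no measure for that spread. Lyve1, Folr2 and Cbr2 had 108, 151 and 114 UMIs in all C1q-high cells, against 5064 for the C1q chains. Lyve1 was at 0, 304 and 66.3 CPM in EYFP negative and 1117, 0 and 589 CPM in EYFP positive runs. Folr2 was at 21.6, 539.5 and 199 CPM in EYFP negative and 925, 72.1 and 742 CPM in EYFP positive runs. Both were highest in EYFP positive run 1 and low or at 0 in EYFP negative run 1 and EYFP positive run 2. Mrc1, the mannose receptor, was at 259, 1153 and 928 CPM in EYFP negative and 1818, 72.1 and 1152 CPM in EYFP positive runs. Pf4 was at 86.5, 1649.5 and 1193 CPM in EYFP negative and 3796, 613 and 2637 CPM in EYFP positive runs. Cbr2 was at 0, 372 and 795 CPM in EYFP negative and 479, 72.1 and 640.02 CPM in EYFP positive runs. Each of these 3 was again lowest in EYFP negative run 1 or EYFP positive run 2. Ccr2, the chemokine receptor of monocytes and of macrophages recently derived from them, was at 1362, 812 and 331 CPM in EYFP negative and 63.8, 432 and 384 CPM in EYFP positive runs. EYFP negative run 1 had most Ccr2. The 12 classical monocyte genes, Ccr2 among them, summed in C1q-high cells to 4325, 2313 and 1856 CPM in EYFP negative and 1627, 721 and 973 CPM in EYFP positive runs, again most in EYFP negative run 1. Ly6c2 was at 216 CPM there and at 0 in the other 5 libraries. With 3 to 8 cells in 5 of the 6 libraries, 1 or 2 cells could set such a level.

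C1q-high cells were then divided by UMIs of Lyve1 or Folr2 and of Ccr2, a split chosen after their values were seen. UMIs of Lyve1 or Folr2 without Ccr2 were found in 19 of the 61 cells, Ccr2 alone in 17, both in 1 and neither in 24. The Lyve1 or Folr2 cells came from every library except EYFP positive run 2, with 12 of the 19 in EYFP negative run 2. Ccr2 cells came from all 6 libraries, with 11 of the 17 in EYFP negative run 2. Median depth was 3500 UMIs in the Lyve1 or Folr2 cells, 7690 in the Ccr2 cells and 1989 in the cells with neither. Among the 37 cells of at least 2000 UMIs the counts were 11, 13, 1 and 12, and after each was thinned to 2000 UMIs they were 11, 11, 0 and 15.

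Other genes differed between these cells, given as levels without a test because the same counts made the split. Pf4 was at 5069 CPM in the Lyve1 or Folr2 cells, 192 CPM in the Ccr2 cells and 716 CPM in the cells with neither. Mrc1 was at 2787 CPM in the Lyve1 or Folr2 cells, 339.99 CPM in the Ccr2 cells and 425 CPM in the cells with neither. Selenop, a selenium carrier made by resident macrophages, was at 5454 CPM in the Lyve1 or Folr2 cells, 1153 CPM in the Ccr2 cells and 1489 CPM in the cells with neither. The scavenger receptor Cd163 (889, 22 and 90 CPM in the same order), the phosphatidylserine receptor Timd4 (456, 0 and 11) and Gas6, a bridging ligand for dying cells (937, 0 and 134), followed the same order of highest group. Ccl24 and C4b were likewise highest in the Lyve1 or Folr2 cells, at 829 and 1093 CPM, and at or near 0 in the Ccr2 cells. Antigen presentation ran the other way. Cd74 was at 11051 CPM in the Lyve1 or Folr2 cells, 34583 CPM in the Ccr2 cells and 37728 CPM in the cells with neither. H2-Aa was at 4553 CPM in the Lyve1 or Folr2 cells, 13784 CPM in the Ccr2 cells and 14382 CPM in the cells with neither. Il1b, an inflammatory cytokine, was at 0 CPM in the Lyve1 or Folr2 cells, 237 CPM in the Ccr2 cells and 1052 CPM in the cells with neither. Trem2, a lipid-sensing receptor, and Ms4a7 were highest in the cells with neither, at 839 and 2574 CPM.

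The 72 C1q-low cells were led by a different set. Apol7c, an apolipoprotein L of dendritic cells, had 883 UMIs in C1q-low and 1 in C1q-high cells, Fscn1 503 against 1, Il4i1 514 against 5 and Ccl5, a chemokine for T cells, 957 against 13. Ccr7 was at 0 in C1q-high cells and at least 51.1-fold higher in C1q-low cells. Socs2, an inhibitor of cytokine signalling, and Ccl22 were also at 0 in C1q-high cells, at least 30.9 and 29.8-fold higher. Relb, a subunit of the non-canonical NF-kB pathway, and Tbc1d4, a regulator of vesicle traffic, had ratios of 23.2 and 27.2. Non-classical monocyte genes stood beside them: Ace was at least 19.0-fold and Pglyrp1 at least 14.7-fold higher. The mature dendritic cell list of 18 genes summed to 13659.96, 10608 and 741 CPM in EYFP negative and 3359, 4841 and 587 CPM in EYFP positive runs. The non-classical monocyte list of 10 genes summed to 2222, 883 and 5492 CPM in EYFP negative and 7403, 565 and 633 CPM in EYFP positive runs.

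Single C1q-low cells were then counted by how many markers they held, leaving out the genes of the rule. At least 8 of 15 mature dendritic cell markers were found in 21 cells and at least 5 of 10 non-classical monocyte markers in 16 cells, and no cell reached both. At least 6 of 12 classical monocyte markers were found in 7 cells, 4 of which also reached the non-classical count. By the same measure 4 cells were cDC1-like (conventional dendritic cells that cross-present), 6 were cDC2-like and 1 was like a plasmacytoid dendritic cell. With the endothelial list of 9 genes, which 3 cells reached and which makes 7 lists in all, 43 cells reached 1 list, 7 reached more than 1 and 22 reached none. The median depth of those 22 was 1196 UMIs against 8926 for the rest, and these 22 were not placed.

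The 21 mature dendritic-like cells had a median of 12184 UMIs. By design they were high in Il4i1 (2063 CPM), Tmem123 (1595 CPM) and Relb (744 CPM), which were among the counted markers. Genes outside that count were Ccl5 at 3578 CPM, Fabp5, a fatty acid binding protein, at 2001 CPM, and the tetraspanin Cd63 at 878 CPM. Cd74 was at 22166 CPM in them, while Lyz2, the lysozyme of macrophages and monocytes, was at 62.4 CPM and Csf1r, the receptor for macrophage growth factor, at 22.3 CPM. The 16 cells with non-classical monocyte markers were the reverse, with Lyz2 at 17709 CPM, the interferon-induced Ifitm3 at 5012 CPM, Cx3cr1, the fractalkine receptor of patrolling monocytes, at 756 CPM, and Apol7c, Fscn1, Ccl5, Cd63 and Socs2 all at 0.

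**Figure D2:**
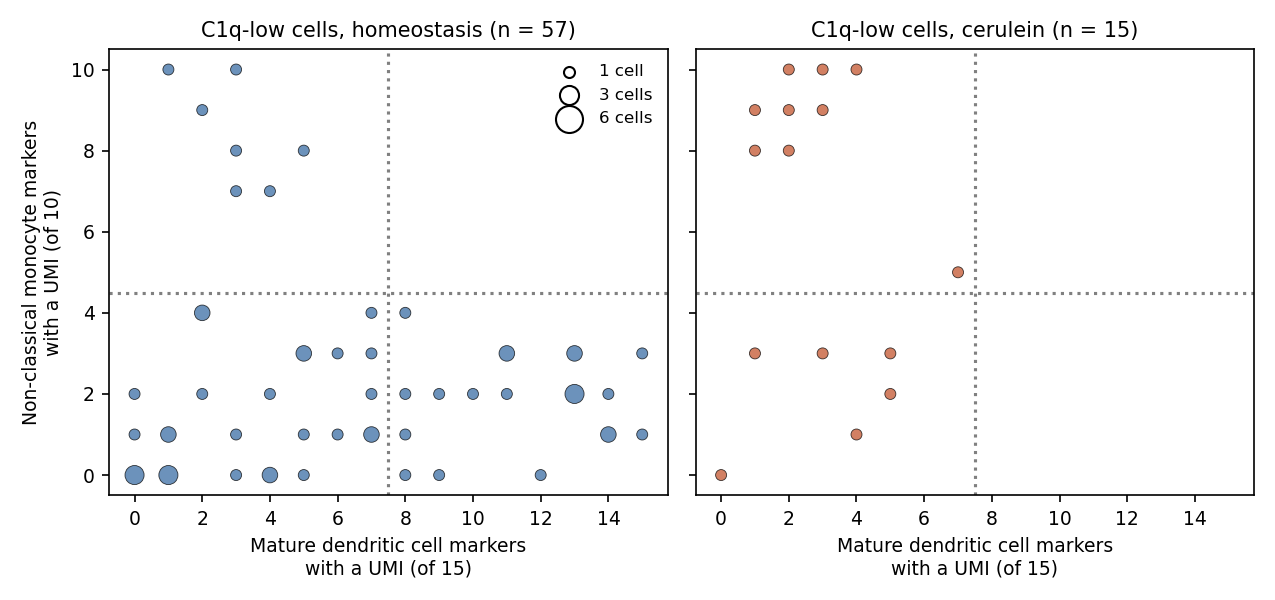
Each C1q-low cell by its number of mature dendritic cell markers (x axis, of 15) and of non-classical monocyte markers (y axis, of 10), in homeostasis (left, n = 57 cells) and after cerulein (right, n = 15 cells). Bubble size is the number of cells at a point and dotted lines stand between 7 and 8 and between 4 and 5 markers: 21 homeostasis cells and 0 cerulein cells lie right of the vertical line.

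The makeup of the C1q-low cells was set beside condition. Cells with at least 8 of the 15 mature dendritic cell markers were 9 of 16, 10 of 32 and 0 of 11 in EYFP negative runs 1, 2 and 3, and 0 of 3, 2 of 6 and 0 of 4 in EYFP positive runs 1, 2 and 3. Both cerulein libraries had none, and so did EYFP positive run 1 with its 3 cells. With 5 or more of the 15 markers as the limit, 33 of 57 homeostasis cells and 3 of 15 cerulein cells passed, 1 of 11 in EYFP negative run 3 and 2 of 4 in EYFP positive run 3, and EYFP positive run 1 had 2 of 3. Pooled at 8 markers, that was 21 of 57 cells in homeostasis (36.8%, exact 95% interval 24.4% to 50.7%) and 0 of 15 after cerulein (exact 95% upper limit 21.8%; a floor of 3 counts allows a share of up to 20%). Without the shallower copies it was 21 of 55 and 0 of 14. Of the cells with at least 2000 UMIs, 21 of 43 and 0 of 14 passed, and after thinning to 2000 UMIs 14 of 43 and 0 of 14. Intervals cover counting error only, and cells of 1 library are not replicates.

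Cells with non-classical monocyte markers stood the other way round, mostly in 1 library. They were 4 of 16, 2 of 32 and 8 of 11 C1q-low cells in EYFP negative runs 1, 2 and 3, and 1 of 3, 0 of 6 and 1 of 4 in the EYFP positive runs. Pooled, that was 7 of 57 (12.3%, interval 5.08% to 23.7%) in homeostasis and 9 of 15 (60%, interval 32.3% to 83.7%) after cerulein, of which 8 came from EYFP negative run 3. Without that library the cerulein count was 1 of 4. Thinned to 2000 UMIs, 6 of 43 and 8 of 14 cells passed. The 7 homeostasis and 9 cerulein cells differed in level, again as a description: Lyz2 was at 11021 and 23175 CPM, Apoe at 2194 and 4641 CPM, and Ace at 1044 and 578 CPM. Classical monocyte-like cells were 3 of 57 and 4 of 15, cDC1-like cells 1 of 57 and 3 of 15, and cDC2-like cells 4 of 57 and 2 of 15.

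The share of members among kept cells asked whether these cells were more frequent in either EYFP group or after cerulein. It was 5.48%, 3.74% and 1.30% in EYFP negative runs 1, 2 and 3 and 0.838%, 4.81% and 3.36% in EYFP positive runs 1, 2 and 3. The order of the 2 EYFP groups differed between runs: EYFP positive was lower in run 1 and higher in runs 2 and 3. The means were 3.004% ± 2.01 (SD, n = 3) for EYFP positive and 3.50% ± 2.102 (SD, n = 3) for EYFP negative libraries, with p = 0.7 (exact permutation test, two-sided, lowest possible p 0.1). After cerulein the mean was 2.33% ± 1.46 (SD, n = 2) and in homeostasis 3.72% ± 2.05 (SD, n = 4), with p = 0.533 in the same exact test (lowest possible p 0.0667). C1q-high cells were 33.3%, 51.5% and 42.1% of members in EYFP negative runs 1, 2 and 3 and 57.1%, 33.3% and 50% in EYFP positive runs 1, 2 and 3. Their exact permutation p was 0.8 for EYFP (46.8% ± 12.2 against 42.3% ± 9.09, SD, n = 3 each) and 0.867 for cerulein (46.1% ± 5.58, n = 2, against 43.8% ± 12.3, n = 4, SD). The sort, the dissociation and the other cells in a library all enter these shares.

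**Figure D3:**
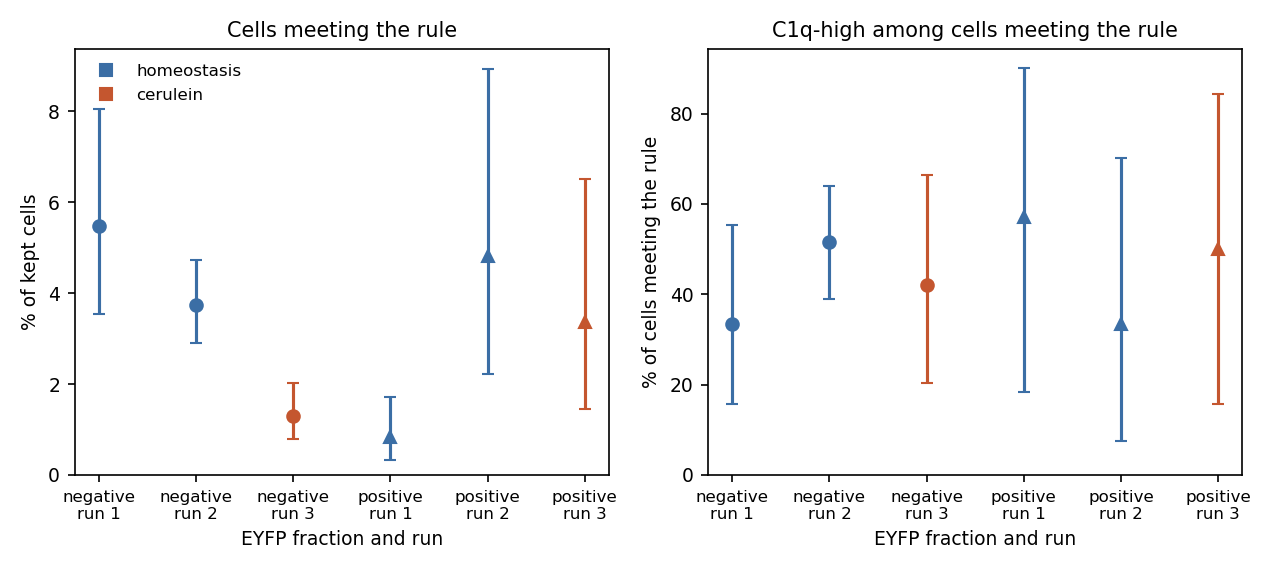
Left, share of kept cells that met the member rule, per library (y axis: percent of kept cells). Right, share of members that were C1q-high (y axis: percent of members). Bars are exact 95% binomial intervals and cover counting error only. Circles are EYFP negative and triangles EYFP positive libraries, with homeostasis in blue and cerulein in orange. The members' share runs from 0.838% in EYFP positive run 1 to 5.48% in EYFP negative run 1, and both conditions overlap.

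The cerulein comparison asked what differed in these cells 9 days after injury. In C1q-low cells a fit of the 3 EYFP negative libraries, the only ones with at least 10 such cells, called 0 of 3186 genes (0%) by edgeR's quasi-likelihood test at a Benjamini-Hochberg adjusted p under 0.05, with 443 genes at an unadjusted p under 0.05 and 55 called by DESeq2. That fit had 1 residual degree of freedom. In counts simulated for it, 1.45% of 2-fold, 19.6% of 4-fold and 61% of 8-fold changes were recovered among genes that passed the filter. A fit of all 6 libraries, added after the data were seen, holding libraries of 3, 4 and 6 cells and with 3 residual degrees of freedom, called 17 of 1585 genes (1.07%), 3 higher (0.189%) and 14 lower (0.883%) after cerulein. DESeq2 called 55. Apol7c, Fscn1, Ccr7 and Lyz2 of the 17 belong to the rule and are given below as levels. The other 13, 2 higher and 11 lower, are described next. They are not independent of the rule, since genes carried by the same cells as its genes can follow from the choice of cells. The 2 higher, Retnla and Lyz1, came mostly from 1 cell. In a bulk sum of these cells, fewer cells of a type and less RNA per cell cannot be told apart, and the calls come from the same counts as the mature dendritic-like cells. In the sum without those 21 cells, 1 gene, Retnla, was called.

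Of the 11 genes that fell, 5 were chemokines or genes of the mature dendritic cell list. Ccl5 was at 2393, 2687, 3153 and 867 CPM in homeostasis and 0 and 0 CPM after cerulein. All 4 homeostasis libraries lay above both cerulein libraries, where it had 0 UMIs, and it was at least 125-fold lower by summed CPM, with the floor of 3 counts over the cerulein libraries. Its adjusted p was 0.0135 by edgeR, and it was found in 30 of the 72 cells. Il4i1 was at 1582, 1247, 206 and 622 CPM in homeostasis and 0 and 22.6 CPM after cerulein. It fell, with 2 UMIs after cerulein against 512 in homeostasis, or 0.0099 times the CPM (95% interval from counting 0.0012 to 0.036) and an edgeR adjusted p of 0.0486. Socs2 was at 418, 508, 68.5 and 94.2 CPM in homeostasis and 0 and 0 CPM after cerulein. It fell at least 21.5-fold, with an edgeR adjusted p of 0.025. Tmem123, a membrane mucin, was at 1032, 1181, 137 and 132 CPM in homeostasis and 27.9 and 11.3 CPM after cerulein. It fell, with 3 UMIs after cerulein against 386 in homeostasis, or 0.02 times the CPM (95% interval from counting 0.0041 to 0.058) and an edgeR adjusted p of 0.025. Cxcl16, a membrane-bound chemokine, was at 506, 563, 137 and 188 CPM in homeostasis and 14.0 and 22.6 CPM after cerulein. It too fell, with 3 UMIs after cerulein against 194 in homeostasis, or 0.039 times the CPM (95% interval from counting 0.008 to 0.12) and an edgeR adjusted p of 0.0486.

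The other 6 genes that fell were on neither of these lists. Cd63, a protein of lysosomes and secreted vesicles, was at 481, 772, 411 and 339 CPM in homeostasis and 0 and 0 CPM after cerulein. With 0 UMIs after cerulein it was at least 31.5-fold lower (edgeR adjusted p = 0.0185). Cd1d1, which presents lipids to natural killer T cells, was at 234, 226, 137 and 75.4 CPM in homeostasis and 0 and 0 CPM after cerulein, at least 11.02-fold lower (edgeR adjusted p = 0.0403). Reads of Cd1d1 may be split with its near-identical copy. Tbc1d4 was at 836, 877, 617 and 1507 CPM in homeostasis and 0 and 45.2 CPM after cerulein. It fell by 5.41 on the log2 scale (SE 0.90, edgeR adjusted p = 0.0403). Basp1, a membrane protein of the cell cortex, Rogdi and Aebp2, a partner of the Polycomb complex, fell too. Basp1 was at 823, 927, 137 and 226 CPM in homeostasis and 41.9 and 22.6 CPM after cerulein (edgeR adjusted p = 0.0403). Rogdi was at 506, 309, 137 and 301 CPM in homeostasis and 14.0 and 22.6 CPM after cerulein (edgeR adjusted p = 0.0486). Aebp2 was at 323, 243, 206 and 169.5 CPM in homeostasis and 55.9 and 22.6 CPM after cerulein, with a log2 fold change of -2.68 (SE 0.48, edgeR adjusted p = 0.0486). The 2 conditions did not overlap for any of these 11 genes, against 333 of the 1585 genes tested (21%).

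The rule's own genes are given beside them as levels. Apol7c was at 3652, 1467, 206 and 697 CPM in homeostasis and 0 and 0 CPM after cerulein. Fscn1 was at 1633, 1142, 411 and 603 CPM in homeostasis and 0 and 0 CPM after cerulein. Ccr7 was at 810.2, 723, 411 and 113 CPM in homeostasis and 0 and 0 CPM after cerulein. All 3 had 0 UMIs in both cerulein libraries. Lyz2 was at 2759.8, 2984, 7266 and 5275 CPM in homeostasis and 23953 and 19745 CPM after cerulein, with no overlap of the 2 conditions.

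**Figure D4:**
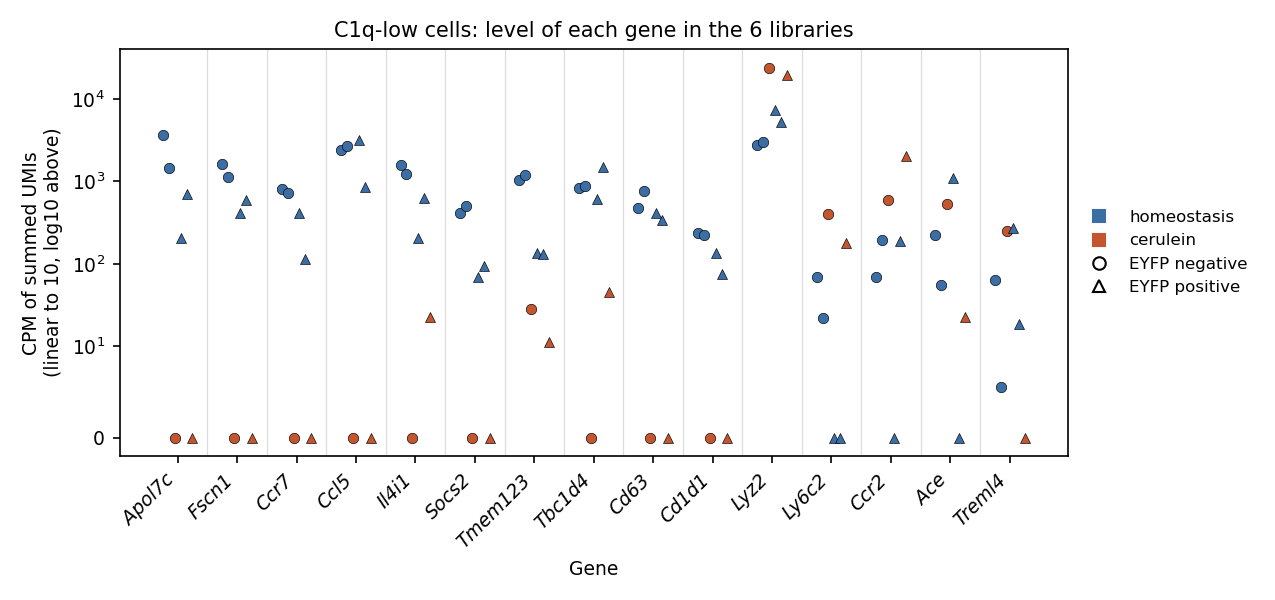
Level of 15 genes in C1q-low cells, 1 point per library (y axis: CPM of summed UMIs, linear to 10 and logarithmic above; circles EYFP negative, triangles EYFP positive; blue homeostasis, orange cerulein). Both cerulein libraries sit at 0 for Apol7c, Fscn1, Ccr7, Ccl5, Socs2, Cd63 and Cd1d1 and above all 4 homeostasis libraries for Lyz2; Ace and Treml4 overlap.

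As a group, the mature dendritic cell list had 16 of its 18 genes tested, of which 6 fell and none rose. Without the rule's genes 3 of 13 fell, namely Il4i1, Socs2 and Tmem123, against 14 of all 1585 genes tested (0.883%). The median log2 fold change of those 13 was -3.65, also with genes at 0 set to their bound, and all 13 were below 0. Of the 13, 3 had 0 UMIs in 1 of the 2 conditions. The list was chosen with earlier results of these data known, and its genes Apol7c, Fscn1 and Ccr7 helped to admit the cells. Its values therefore describe the cells and are no separate support for the calls. Over all 1585 genes tested the median was 0.01 and 788 were below 0. Ccl22 and Cacnb3, a calcium channel subunit, which did not pass, had 0 UMIs in both cerulein libraries. Ccl22 was at 209, 541, 68.5 and 489.8 CPM in homeostasis and 0 and 0 CPM after cerulein. Of the 5 chemokines tested, Ccl5 and Cxcl16 fell and none rose (median -4.13). Of the 19 lysosome and phagocytosis genes tested, Cd63 fell and Lyz2, a gene of the rule, was called higher. The 17 of these outside the rule had a median of 0.58. Of the 10 non-classical monocyte genes tested none passed (median 0.53, 9 above 0), and of the 10 MHC class II genes none passed (median -0.41). The list of 18 dissociation and immediate-early genes, which respond to tissue handling, summed to 5246 to 9871 CPM in homeostasis and 13724 to 16141 CPM after cerulein, with 0 of 16 called. Its part in the results above was not tested. Acinar markers summed to 617 to 8667 CPM in homeostasis and 2361 to 3564 CPM after cerulein, and erythroid markers to 0 to 1374 CPM in homeostasis and 418 to 6107 CPM after cerulein, where Alas2 and Slc4a1 were at 0.

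In C1q-low cells after cerulein all 7 classical monocyte genes tested had values above 0 (median 2.33), and Lyz1, a lysozyme near-identical to Lyz2, was the 1 called. Ly6c2 was at 69.6, 22.1, 0 and 0 CPM in homeostasis and 405 and 181 CPM after cerulein, with a fitted log2 fold change of 3.24 (SE 0.66, edgeR adjusted p = 0.059). Ccr2 was at 69.6, 193, 0 and 188 CPM in homeostasis and 601 and 2056 CPM after cerulein, with 2.94 (SE 0.76, edgeR adjusted p = 0.104). Lyz1 was at 0, 0, 0 and 452 CPM in homeostasis and 224 and 6890.4 CPM after cerulein, and the conditions overlapped. Retnla, a secreted protein of alternatively activated macrophages, was at 0, 0, 0 and 0 CPM in homeostasis and 238 and 6732 CPM after cerulein. Retnla and Lyz1 passed the test, yet 97.2% and 93.4% of their UMIs came from 1 cell of EYFP positive run 3, with 596 and 607 UMIs. The EYFP negative run 3 cell that held 17 Retnla and 16 Lyz1 UMIs was a shallower copy of that barcode. Without shallower copies 15 genes were called, 1 higher (Lyz2) and 14 lower, and neither Retnla nor Lyz1 was among them.

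The calls in C1q-low cells rested on particular libraries. With EYFP negative run 3 left out, 0 genes were called, and with EYFP positive run 1, of 3 cells, left out, 87 were. Leaving out EYFP negative run 1 gave 11, EYFP negative run 2 gave 7, EYFP positive run 2 gave 9 and EYFP positive run 3 gave 24. Stricter cells gave 3 calls, and members with 3 or with 5 of the 11 genes gave 0. Over 23 other settings, left-out libraries included, Ccl5 was called in 17, Cd63 in 16, Tbc1d4 in 13, Socs2 and Tmem123 in 12 and Il4i1 in 11. Xist, expressed from the inactive X chromosome of females, was at 1418, 750.3, 274 and 0 CPM in homeostasis in C1q-low cells. After cerulein it was at 0 and 0 CPM there. In C1q-high cells it was at 396 to 1903 CPM in the homeostasis libraries and at 0 in both cerulein libraries. A difference of sex between the conditions could not be told apart from cerulein or run 3, and its part was not tested.

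In C1q-high cells no library besides EYFP negative run 2 had 10 cells, and the test of all 6 libraries was added after the data were seen. After cerulein it called 0 of 572 genes (0%) by edgeR's quasi-likelihood test, with 34 at an unadjusted p under 0.05 and 1 called by DESeq2, Xist. In counts simulated for this comparison, 5.45% of 2-fold and 60.7% of 4-fold changes were recovered among genes that passed the filter. Xist was at 1903, 992, 510.4 and 396 CPM in homeostasis and 0 and 0 CPM after cerulein, with an edgeR adjusted p of 0.119. Lgals3, a galectin of phagocytes, was at 541, 713, 766 and 2702 CPM in homeostasis and 133 and 102 CPM after cerulein. It had a fitted log2 fold change of -3.50 (SE 0.81, edgeR adjusted p = 0.331), with 1 homeostasis library, EYFP positive run 2, far above the rest. Leaving out the genes of the rule, none of the 18 resident macrophage genes tested passed (median 0.10, against -0.05 over all 572), nor any of 15 lysosome, 8 chemokine, 4 complement, 7 lipid handling or 5 repair genes (medians -0.05, -0.47, -0.08, -0.0033 and -1.75). Immediate-early genes had 14 of 15 values below 0 (median -1.41) and summed to 6152 to 26806 CPM in homeostasis and 3844 to 8704 CPM after cerulein, and these ranges overlap. MHC class II genes had 6 of 7 below 0 (median -0.58), and the 13 genes summed to 49223 to 74323 CPM in homeostasis and 40475 to 55346 CPM after cerulein, none called. Digestive enzyme RNA was higher in both cerulein libraries, at 1773 to 2518 CPM in homeostasis and 5274 to 9876 CPM after cerulein, with 7 of 7 tested acinar genes above 0 (median 2.00) and none called. Ctrb1 had a fitted log2 fold change of 2.31 (SE 0.50, edgeR adjusted p = 0.324) in C1q-high cells. The part of free RNA, which gave a Ctrb1 UMI in 77.3% of T cells, was not tested.

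The comparison of EYFP positive with EYFP negative cells, with condition in the model, called 0 of 572 genes (0%) in C1q-high and 0 of 1585 (0%) in C1q-low cells by edgeR's quasi-likelihood test. At an unadjusted p under 0.05 there were 23 and 112 genes, and DESeq2 called 3 (Jun, Lyz1 and mt-Co3) and 4 (Tmem123, Igkc, Marcksl1 and Bcl2a1b). In counts simulated for these 2 fits, 11.1% and 6.45% of 2-fold changes were recovered among genes that passed the filter. Of 4-fold changes 81.7% and 54% were recovered. In C1q-high cells Jun, an immediate-early transcription factor, was at 670.4, 477 and 199 CPM in EYFP negative and 1627, 2594 and 1587 CPM in EYFP positive runs. It was higher in the EYFP positive library of each run, with a fitted log2 fold change of 2.15 (SE 0.36, edgeR adjusted p = 0.232). All 15 immediate-early genes tested were above 0 in EYFP positive C1q-high cells (median 0.95), and none was called. Depth of C1q-high cells also differed: the median cell of EYFP positive runs 1, 2 and 3 held 7920.5, 9040 and 10617 UMIs. For EYFP negative runs 1, 2 and 3 that median was 2095.5, 3149.5 and 1667.5. Median mitochondrial share was 1.98%, 1.29% and 2.33% in EYFP positive runs, against 3.45%, 3.50% and 3.05% in EYFP negative runs. The part of depth and mitochondrial share in the EYFP comparison was not tested. Lyz1 in C1q-high cells was at 1276, 484 and 729 CPM in EYFP negative and 63.8, 0 and 0 CPM in EYFP positive runs, with -5.10 (SE 0.92, edgeR adjusted p = 0.232). Trem2 was at 173, 465 and 133 CPM in EYFP negative and 861, 1117 and 282 CPM in EYFP positive runs, higher in the EYFP positive library of each run, with 1.46 (SE 0.50, edgeR adjusted p = 0.869). In C1q-low cells the 13 mature dendritic cell genes outside the rule were all below 0 in EYFP positive libraries (median -1.86, against -0.07 over the 1585), none called. Acinar markers there had 12 of 12 below 0 (median -1.43), and Igkc, an antibody chain of B cells, had -5.43 (SE 0.88, edgeR adjusted p = 0.216).

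Whether cerulein acted differently in EYFP positive and negative C1q-high cells was tested as an interaction, with 2 residual degrees of freedom. There was 1 library per EYFP group after cerulein, and these lone libraries were assumed to vary like the others. In counts simulated for this fit, 0% of 4-fold and 3.28% of 8-fold changes were recovered among genes that passed the filter. The test could therefore not decide the question, and an absence of calls does not show an absence of differences. edgeR's quasi-likelihood test called 0 of 848 genes (0%), with 18 at an unadjusted p under 0.05 and 0 called by DESeq2. The gene of lowest p besides Ifi204 was Cx3cr1, at 714, 620.1 and 66.3 CPM in EYFP negative and 542, 288 and 998 CPM in EYFP positive runs, with a fitted log2 difference of 4.81 (SE 1.18, edgeR adjusted p = 1.0). It was lowest in EYFP negative run 3, of 8 cells, and highest in EYFP positive run 3, of 4 cells.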

How the data were processed

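The authors deposited raw UMI counts per gene and barcode for 6 libraries, whole numbers per the file headers, with 31053 mouse genes. Per the submitters' processing notes Cell Ranger 2.1.0 and the build GRCh38 were used, while the file headers give software version 3.1.0. Which mouse build was aligned to is not stated in those notes or headers. Barcodes were called as cells by the authors. The libraries held 44833541 UMIs.

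Members and gene lists were chosen with earlier results of these data known. Counts were summed per library over the C1q-high or C1q-low cells and tested with edgeR 4.0.16 in R 4.3.3 (TMM, filterByExpr, quasi-likelihood F test, Benjamini-Hochberg adjusted p under 0.05), with at least 10 cells per library. That left 3 libraries in 1 fit, so fits of all 6 libraries (at least 1 cell) were added after the data were seen. Each SE is the absolute log2 fold change over the square root of F. Cerulein and EYFP were each other's covariate. Shares were compared by two-sided exact permutation tests.

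Named genes were up to 10 per direction with the largest change among called genes of 1 direction whose mean log2 CPM reached 5 (otherwise 5 of lowest p per direction as values), the rule's genes, list members, up to 20 leading genes per direction between classes, 10 most abundant genes, Malat1, Xist and Ddx3y. Alternatives were DESeq2 1.42.0 and its size factors, no low-count filter, stricter cells (500 genes, 10% mitochondrial UMIs), all barcodes, doublets left out (Scrublet in scanpy 1.11.5, 20 components), 3 or 5 member genes, C1q cuts of 1 and 5 UMIs, thinning to 2000 UMIs, a block by run and each library left out. Calculations used Python 3.11.15, numpy 2.4.6, pandas 2.3.3 and scipy 1.17.1, and were tested on simulated data. Intervals and floors of 3 counts cover counting error only.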

Additional observations from a re-analysis of the deposited data

How the results depend on the processing

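With so few cells most counts of called genes depended on the processing, and the causes were not tested. For C1q-low cells after cerulein, the fit of 3 EYFP negative libraries gave 0 calls as reported, 60 with DESeq2's size factors, 55 with DESeq2, 300 with stricter cells, 283 with a C1q cut at 5 UMIs, 287 at 1 UMI, 290 without cells rich in endothelial markers, 314 without shallower copies and 17 over all 6 libraries. Over all 6 libraries the 17 calls became 55 with DESeq2, 6 without a low-count filter, 3 with stricter cells, 0 with 5 member genes, 0 with 3 member genes, 41 with a C1q cut at 1 UMI, 0 in the EYFP negative libraries alone, 0 in libraries of at least 5 cells, 1 without cells rich in mature dendritic cell markers, and 0 to 87 with a library left out. For C1q-high cells, EYFP gave 0 calls but 3 with DESeq2 and 7 without the low-count filter, cerulein 0 but 1 and 5, and the interaction 0 but 4 without the filter. EYFP in C1q-low cells gave 0 calls, 4 with DESeq2 and 0 to 2 with a library left out.

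Run numbers are shared by EYFP positive and negative libraries, but the labels do not say what a run shares. Deviations of each library were taken from the mean of its EYFP group over both conditions. Those of same-run libraries correlated at -0.01, -0.03 and 0.08 in C1q-high and 0.06, 0.29 and 0.30 in C1q-low cells. Those of different runs correlated at -0.08 to 0.07 in C1q-high and -0.35 to 0.20 in C1q-low cells. In C1q-low cells the same-run values of runs 2 and 3 thus lay above all different-run values. Run 3 is also the cerulein run, and a difference between the conditions enters all these values. They therefore cannot show what the libraries of a run share. The main fits did not take runs as pairs, and fits with runs as blocks are given beside them. With run as a replicate block, EYFP gave 0 calls in C1q-high cells and 6 in C1q-low cells (Lyz1, Lpl and Retnla higher, Hbb-bs, Igkc and Cd209a lower). Paired by run, the shares differed by the same -0.501 and 4.51 points (exact sign-flip p = 1 and 0.75, smallest possible 0.25).

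No exact permutation test of a share could reach p = 0.05, since its lowest possible p was 0.1 for EYFP and 0.0667 for cerulein, and several shares changed sign. The members' share, EYFP positive minus negative, was -0.501 points, 0.0700 with all barcodes, 1.08 with 3 member genes and -1.61 to 0.582 with a library left out. The C1q-high share differed by 4.51 points for EYFP, by -6.24 with 3 member genes and by -0.651 to 11.3 with a library left out. For cerulein it was 2.22 points, -3.63 with stricter cells, -0.886 with all barcodes, -3.95 with 5 member genes, -4.34 with a C1q cut at 1 UMI, -9.39 after thinning and -1.73 to 6.66 with a library left out. The members' share after cerulein kept its sign, -3.45 to -0.356 points, and with 3 member genes it reached the lowest possible exact p (-3.45 points, p = 0.0667). Of the 104 cells which that limit added, 67 carried 5 or more of the 9 endothelial markers. The added cells numbered 10, 37 and 3 in EYFP negative and 46, 4 and 4 in EYFP positive runs 1, 2 and 3. Not run, for lack of cells or residual degrees of freedom, were the fit of 3 libraries with 5 member genes, without mature dendritic cells or without any library, EYFP in C1q-high cells and the interaction in libraries of 5 cells, and the interaction without a cerulein library.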
